A study of Mus musculus with 6 samples.

Results

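The genes described are 10 genes of the response to amino acid shortage that is driven by the transcription factor ATF4: Atf4, Ddit3, Asns, Psat1, Phgdh, Trib3, Chac1, Slc7a11, Sesn2 and Mthfd2. They were chosen by symbol, through the Ensembl identifier of each row, from the 54232 genes of the deposited count table; the rule itself uses no measured value, but the list was drawn up with earlier results of these data known. The samples are primary cells of oviductal smooth muscle, taken from mice on day 2 of pregnancy and measured by RNA-Seq, with 3 libraries from WT females and 3 from Pbrm1 cKO females aged 8 to 12 weeks. The question was which genes depend on Pbrm1, which encodes a component of the chromatin remodeler SWI/SNF, in these cells. In the Pbrm1 cKO mice, a floxed Pbrm1 gene is deleted by a cre recombinase placed in the progesterone receptor locus (PR-IRES-cre), so that every cell that expresses the receptor can lose Pbrm1. The labels call the control group WT, while the text of the study names floxed littermates that carry no cre. Cells of both groups were freed by enzymes, passed through a filter, plated for 4 hours in medium with 12% charcoal-stripped serum and kept for a further 2 hours in 10% serum. The labels give neither the number of animals behind each library nor the strain of the mice.

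ATF4 is a bZIP transcription factor whose protein is made when the initiation factor eIF2 is phosphorylated on its alpha subunit, which happens when uncharged tRNA, unfolded protein, viral RNA or heme shortage activates one of the eIF2 alpha kinases. Upstream reading frames in the Atf4 mRNA hold back translation of the protein in unstressed cells, and phosphorylation of eIF2 alpha relieves that block. Control of ATF4 is therefore largely translational, and the level of its mRNA is an incomplete measure of its activity. Its targets raise amino acid import and synthesis, charge tRNA, and include brakes that end the response. Many of them carry the C/EBP-ATF response element (CARE), a composite site for ATF4 and a C/EBP partner.

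Libraries held 15390818 to 18947947 counts, and mitochondrial genes took 6.88% to 8.24% of them. Pbrm1 itself was at 170, 183 and 172 CPM in WT and at 43.5, 50.7 and 42.7 CPM in Pbrm1 cKO, where CPM are reads relative to the scaled total of the library. Counts over all exons include transcripts that lack the deleted part. Markers of smooth muscle (Acta2, Myh11, Tagln and 7 others) were measured in both groups. They summed to between 3671 and 3753 CPM in WT and between 4630 and 5236 CPM in Pbrm1 cKO. Of the 10, 6 were higher and 1 was lower at an edgeR adjusted p-value of 0.05, where 43.7% of all tested genes were called. Mylk and Des rose most, to 2.38 and 2.31 times the WT mean. Markers of other cells were present as well, and several lists differed between the groups. The 10 leukocyte markers summed to 709 to 763 CPM in WT and 1013 to 1090 CPM in Pbrm1 cKO, with 8 of 10 called at an edgeR adjusted p-value of 0.05 and all 8 higher. The 8 fibroblast markers summed to 6441 to 7152 and 9623 to 9886 CPM, with 5 higher and 1 lower, and 5 of 8 epithelial markers were higher (920 to 1005 and 1043 to 1164 CPM). One of 5 endothelial markers and 2 of 4 mesothelial markers were lower. Genes that respond to tissue dissociation (Fos, Hspa1a, Dusp1 and 7 others) summed to 588 to 672 CPM in WT and 797 to 895 CPM in Pbrm1 cKO, with 7 higher and 1 lower. No marker was at 0 in every library. These differences run with the genotype in all the results below, and their part in them was not tested. Bulk RNA cannot tell a change in the number of cells of a type from a change in RNA per cell.

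Promoter sequences of the genes are described first. Within 250 bases before and 50 bases after the RefSeq start (build GRCm38.p6), the CARE core, spelled TGATGNAA and searched on both strands, was found in 4 of the 10 genes: Slc7a11, Chac1, Asns and Trib3. All 10 genes matched a RefSeq promoter. Among 27025 mouse genes, 4.51% held a match in at least 1 promoter, as did 3.97% of 32851 promoters. A match is a description of the letters and not of binding. Slc7a11 and Chac1, the genes with the largest changes below, carried their matches upstream of the start. The stretches are printed from 5′ to 3′ on the strand of the gene, with the CARE core on either strand in capitals. They run up to the last base before the gene as the count table delimits it, and so leave out the last 13 bases before the RefSeq start of Chac1 and the last 1 before that of Slc7a11. The first is chr3:50443615-50443863 on the minus strand and the second is chr2:119350992-119351228 on the plus strand.
Slc7a11: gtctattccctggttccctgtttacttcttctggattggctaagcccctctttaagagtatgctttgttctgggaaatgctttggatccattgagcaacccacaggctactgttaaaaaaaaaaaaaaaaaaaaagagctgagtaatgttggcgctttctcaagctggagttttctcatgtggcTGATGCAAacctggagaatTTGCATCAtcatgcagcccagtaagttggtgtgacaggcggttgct
Chac1: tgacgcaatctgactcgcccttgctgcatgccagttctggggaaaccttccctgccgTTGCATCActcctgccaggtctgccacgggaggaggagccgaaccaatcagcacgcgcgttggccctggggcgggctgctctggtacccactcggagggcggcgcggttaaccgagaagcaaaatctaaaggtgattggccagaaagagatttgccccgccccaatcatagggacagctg

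Slc7a11 held a pair of cores that face each other, the first base of one at -66 and of the other at -47, where positions are counted from the RefSeq start and not from the end of the printed stretch. In Chac1 the core, on the minus strand, began at -193 from that start. The core of Asns began at -23, which is upstream of the RefSeq start but inside the gene as the count table delimits it, and that of Trib3 at 15 bases into the transcript. To compare them, each core is shown with 10 bases on either side, turned so that it reads TGATGNAA, with the core in capitals.
Slc7a11 at -66: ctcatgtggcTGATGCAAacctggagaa
Slc7a11 at -47: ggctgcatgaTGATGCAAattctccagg
Chac1 at -193: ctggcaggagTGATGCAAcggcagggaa
Asns at -23: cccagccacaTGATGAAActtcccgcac
Trib3 at 15: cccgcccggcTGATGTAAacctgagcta

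The 3 cores of Slc7a11 and Chac1 have the same 8 letters, while Asns and Trib3 each have another base at the open position. Atf4, Ddit3, Psat1, Phgdh, Sesn2 and Mthfd2 had no match in this window, which says nothing of sites elsewhere. The cAMP response element TGACGTCA, a palindrome counted once, was in none of the 10 promoter windows and in 2.03% of all genes.

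Slc7a11, Chac1, Psat1, Ddit3, Trib3 and Asns were higher in Pbrm1 cKO than in WT, and Atf4, Phgdh, Sesn2 and Mthfd2 did not pass the test. Thus 6 of the 10 genes were called at an adjusted p-value of 0.05 (edgeR quasi-likelihood test), all 6 of them higher, where 43.7% of the 15376 tested genes were called and 21.9% were called higher. The largest change was that of Slc7a11, at 1.97 times the WT mean, and the other 5 lay between 1.16 and 1.48 times. The median log2 fold change of the 10 genes was 0.27, against 0.00156 over all tested genes. In 7 genes every Pbrm1 cKO library lay above every WT library, as it did for 26.6% of tested genes. All 10 genes passed the filter on low counts. No gene of the 10 lies on chromosome 14, which holds Pbrm1, or on chromosome 9, which holds the progesterone receptor gene with the cre.

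**Figure D1:**
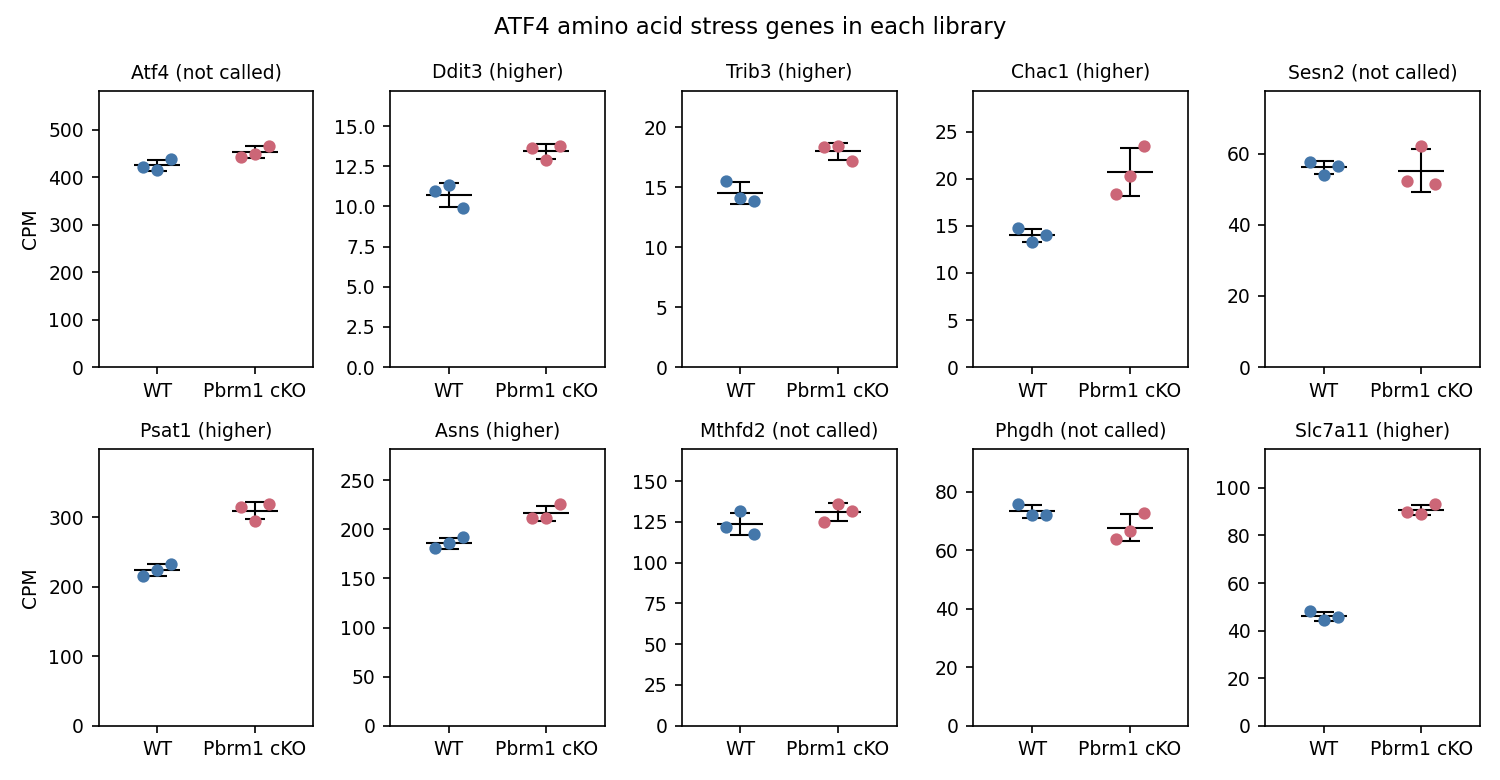
CPM of each gene in the 3 WT libraries (blue) and the 3 Pbrm1 cKO libraries (red), with the mean and SD in black and each axis from 0; the call of the edgeR test stands beside each name. Slc7a11 has the widest gap for its level, with WT libraries at 48.0 CPM or less and Pbrm1 cKO libraries at 89.1 CPM or more, while Sesn2, Mthfd2 and Phgdh overlap.

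The transcription factors came first. Atf4 (chromosome 15, 80255184 to 80257541, plus strand) measured 422, 415 and 439 CPM in WT and 442, 449.7 and 466 CPM in Pbrm1 cKO. All 3 Pbrm1 cKO libraries lay above the WT libraries, by a narrow margin. The log2 fold change was 0.09 (SE 0.043, 95% interval -0.0023 to 0.18) and did not pass the test (edgeR adjusted p = 0.107); the interval reaches no higher than a rise of 0.18 on the log2 scale. Ddit3, which encodes CHOP, a bZIP factor induced by ATF4 that promotes death in prolonged stress, was at 10.9, 11.3 and 9.89 CPM in WT and 13.6, 12.9 and 13.8 CPM in Pbrm1 cKO. The groups did not overlap, and the means of 10.7 ± 0.743 and 13.4 ± 0.467 CPM (SD, n = 3) differed by a log2 fold change of 0.32 (SE 0.093, edgeR adjusted p = 0.0123). Ddit3 was counted at 169 to 243 reads per library, and its call was lost under DESeq2 (adjusted p = 0.065) and without WT replicate 3 (edgeR adjusted p = 0.0575). The table holds a second row named Ddit3 (chromosome 10, 127290829 to 127293753) inside the bounds of the main gene (127290774 to 127296288, plus strand). That row has 105 bases of exon and is listed at 0 in all 6 libraries. Reads that fall on 2 genes of the same strand were not assigned. Any reads on exons that the 2 rows share are therefore missing from the level of Ddit3 in every library. Which exons they share was not tested.

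Genes that restrain or follow the response were Trib3, Chac1 and Sesn2. Trib3 (chromosome 2, 152337422 to 152344032, minus strand), a pseudokinase induced by ATF4 and CHOP that holds back their activity, was at 15.5, 14.1 and 13.9 CPM in WT and 18.4, 18.5 and 17.2 CPM in Pbrm1 cKO. The groups did not overlap and were 0.31 apart on the log2 scale (SE 0.083, edgeR adjusted p = 0.00739). Chac1 (chromosome 2, 119351229 to 119354381, plus strand) encodes an enzyme that degrades glutathione, and it is a target of ATF4 and CHOP. It was at 14.7, 13.3 and 14.0 CPM in WT and 18.4, 20.3 and 23.5 CPM in Pbrm1 cKO. Every Pbrm1 cKO library was above WT, with a wider spread in Pbrm1 cKO (SD 2.58 CPM) than in WT (SD 0.701 CPM). The log2 fold change of Chac1 was 0.56 (SE 0.097, edgeR adjusted p = 0.000384), and 17.2% of tested genes changed by more in either direction.

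Sesn2 (chromosome 4, 132492032 to 132510501, minus strand), a stress-induced leucine sensor that inhibits mTORC1, showed no such shift. It was at 57.7, 54.0 and 56.6 CPM in WT and at 52.2, 62.2 and 51.3 CPM in Pbrm1 cKO, where replicate 2 lay above and the others below all WT libraries. The log2 fold change was -0.02 (95% interval -0.17 to 0.13, edgeR adjusted p = 0.85), and it turned to 0.02 without Pbrm1 cKO replicate 1 and to 0.03 without Pbrm1 cKO replicate 3.

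Among the biosynthetic enzymes, Psat1 rose most. PSAT1 catalyses the second step of serine synthesis from 3-phosphoglycerate, and Psat1 (chromosome 19, 15904678 to 15947337, minus strand) was at 216, 224 and 232 CPM in WT and 315, 295 and 319 CPM in Pbrm1 cKO. The lowest Pbrm1 cKO library was well above the highest WT library, a difference of 0.47 on the log2 scale (SE 0.047, edgeR adjusted p = 3.81e-06). Asns (chromosome 6, 7675169 to 7693254, minus strand), which makes asparagine from aspartate and is the textbook target of ATF4 in amino acid shortage, was at 181, 186 and 192 CPM in WT and 212, 212 and 226 CPM in Pbrm1 cKO. The groups did not overlap, and the change was smaller, with a log2 fold change of 0.22 (SE 0.046, edgeR adjusted p = 0.00165). As many as 49.7% of tested genes changed by more than Asns. Mthfd2 (chromosome 6, 83305691 to 83325908, minus strand), an enzyme of the mitochondrial folate cycle, was at 122, 131 and 118 CPM in WT and 125, 136 and 132 CPM in Pbrm1 cKO. The ranges overlapped, and the log2 fold change was 0.08 (95% interval -0.03 to 0.19, edgeR adjusted p = 0.232).

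Phgdh encodes the enzyme of the first step of serine synthesis, directly before PSAT1, and it did not follow Psat1. Phgdh (chromosome 3, 98313170 to 98339990, minus strand) was at 75.7, 72.1 and 72.0 CPM in WT and 63.9, 66.6 and 72.7 CPM in Pbrm1 cKO. Replicates 1 and 2 of Pbrm1 cKO lay below WT and replicate 3 within its range, for a log2 fold change of -0.11 (95% interval -0.24 to 0.0074, edgeR adjusted p = 0.12). Its value is less certain than the others, because 14 processed copies of Phgdh match its transcript over 80% or more of their length with an identity of at least 90%. Between 185 and 197 reads in WT and 99 to 130 reads in Pbrm1 cKO were counted on these copies, or 12.3% to 13.8% and 8.06% to 9.39% of all reads on Phgdh and copies together. The copy Gm7901, with 98.7% identity, was at 7.86, 7.70 and 9.02 CPM in WT and 5.45, 5.89 and 5.79 CPM in Pbrm1 cKO. Gm9347, at 97.4% identity, was at 1.83, 1.50 and 1.58 CPM in WT and 0.675, 0.371 and 0.45 CPM in Pbrm1 cKO. Both copies were lower in Pbrm1 cKO (log2 fold change -0.52 and -1.70, edgeR adjusted p = 0.00275 and 0.000455). With the reads of all copies added, Phgdh was at 86.6, 82.2 and 83.5 CPM in WT and 70.5, 73.5 and 79.1 CPM in Pbrm1 cKO, the groups no longer overlapped, and the difference passed the test (log2 fold change -0.18, SE 0.054, edgeR adjusted p = 0.015). It also passed without Pbrm1 cKO replicate 3 (log2 fold change -0.17, edgeR adjusted p = 0.0306). Whether the reads on the copies came from Phgdh was not tested. Psat1 has 1 such copy, with 3 reads or fewer in any library.

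Slc7a11 had the largest change of the 10. It encodes xCT, the subunit of the cystine and glutamate exchanger that carries the transport and supplies cysteine for glutathione. Slc7a11 (chromosome 3, 49892526 to 50443614, minus strand) was at 48.0, 44.4 and 45.7 CPM in WT and 89.9, 89.1 and 93.1 CPM in Pbrm1 cKO. The gap between the groups was many times the spread within either of them, with means of 46.0 ± 1.85 and 90.7 ± 2.11 CPM (SD, n = 3). On the log2 scale Slc7a11 rose by 0.98 (SE 0.052, edgeR adjusted p = 1.04e-08), and 6.82% of tested genes changed by more. Over the 16 alternatives the log2 fold change of Slc7a11 stayed between 0.95 and 1.01. Small genes inside its bounds on the same strand, Gm37692 and Gm37498, held 13 and 10 reads or fewer per library. The partner of xCT in the exchanger is the heavy chain encoded by Slc3a2, with 240.2 ± 8.17 CPM in WT against 247 ± 10.2 CPM in Pbrm1 cKO (SD, n = 3; log2 fold change 0.04, 95% interval -0.06 to 0.14, edgeR adjusted p = 0.546).

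**Figure D2:**
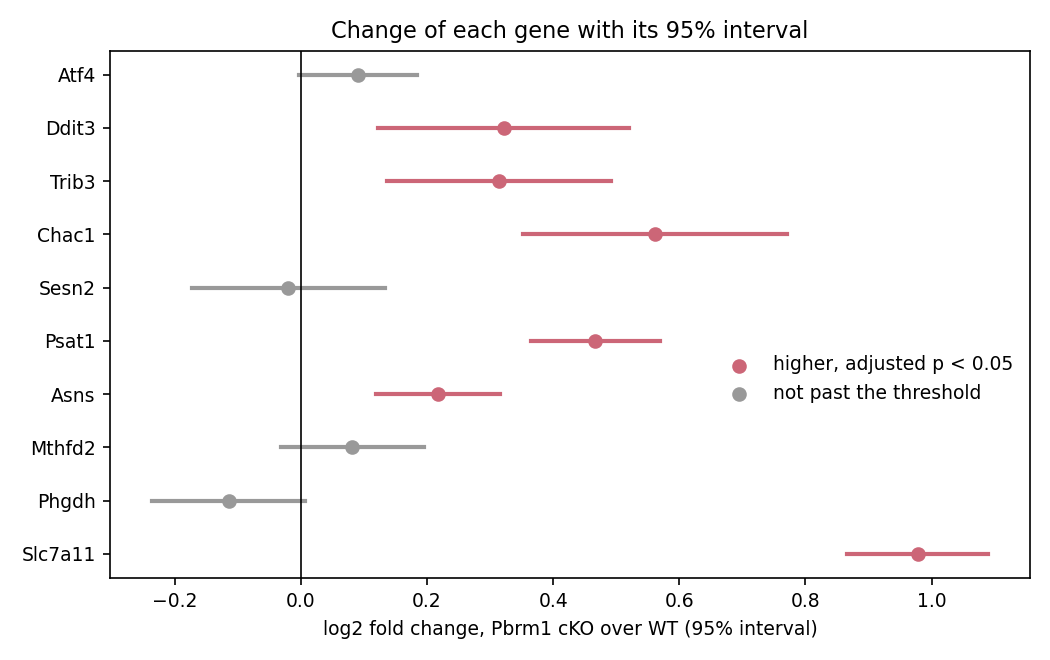
Log2 fold change of Pbrm1 cKO over WT (points) with its 95% interval from the edgeR fit (lines) for each of the 10 genes, red where the adjusted p-value was under 0.05 and gray where it was not. The intervals of Atf4, Sesn2, Mthfd2 and Phgdh include 0, and that of Slc7a11 (0.87 to 1.09) lies above the intervals of the other 9.

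Levels of different genes were compared per length, as RPKM (CPM per kilobase of summed exons). In WT the order was Atf4 (180.3 ± 5.16), Asns (68.0 ± 2.06), Psat1 (52.6 ± 1.91), Mthfd2 (35.5 ± 2.00), Phgdh (29.5 ± 0.85), Sesn2 (16.1 ± 0.544), Chac1 (8.56 ± 0.428), Trib3 (6.83 ± 0.424), Ddit3 (6.26 ± 0.434) and Slc7a11 (3.31 ± 0.133 RPKM; SD, n = 3). Atf4 mRNA was thus far above the mRNA of the other 9 genes, and Chac1, Trib3 and Ddit3 were the scarcest apart from Slc7a11. Trib3 and Ddit3 overlapped in WT, and all other neighbours in the order had ranges that did not. The order was the same in Pbrm1 cKO, where Slc7a11 reached 6.51 ± 0.152 RPKM and Ddit3 stood at 7.84 ± 0.273 RPKM (SD, n = 3). Per length, Slc7a11 is set low by the 13922 bases of exon in its annotation. In CPM, which take no account of length, Slc7a11 was 7th of the 10 in WT and 5th in Pbrm1 cKO.

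The rest of the pathway was read from 8 lists with 77 genes in all, each of which passed the filter. Of these, 37 were called (48.1%), 25 higher and 12 lower, against 43.7% of all tested genes called, 21.9% higher and 21.8% lower. The share called over the lists is thus near that of all genes. The median log2 fold change over the lists was 0.0394. Counts ran from 2 of 13 genes in the other arms of the unfolded protein response to 10 of 14 among the other targets of ATF4.

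Of the 7 genes that set the phosphorylation of eIF2 alpha, 3 were called (42.9%), near the 43.7% of all tested genes. Of the 4 eIF2 alpha kinases, Eif2ak4 (GCN2, which senses uncharged tRNA) was at 44.2 ± 0.612 and 45.4 ± 4.90 CPM in WT and Pbrm1 cKO (SD, n = 3), and Eif2ak3 (PERK, which senses unfolded protein) at 37.0 ± 1.94 and 37.5 ± 0.607 CPM. Neither these nor Eif2ak1 (HRI) passed the test (edgeR adjusted p = 0.667, 0.844 and 0.84). Eif2ak2, which encodes PKR, a sensor of double-stranded RNA that is also induced by interferon, was at 37.8, 37.3 and 39.0 CPM in WT and 82.9, 56.1 and 76.9 CPM in Pbrm1 cKO. Eif2ak2 rose by 0.92 on the log2 scale (SE 0.11, edgeR adjusted p = 1.78e-05), and Pbrm1 cKO replicate 2 was the lowest of the raised libraries. Eif2s1, the alpha subunit of eIF2 itself, was lower (log2 fold change -0.22, edgeR adjusted p = 0.00207). The phosphatase subunit Ppp1r15a (GADD34), which is induced by the response and ends it, rose from 52.9 ± 1.62 to 66.5 ± 2.26 CPM (SD, n = 3; log2 fold change 0.33, edgeR adjusted p = 0.000204). Its constitutive relative Ppp1r15b was at 172 and 171 CPM (log2 fold change -0.01, edgeR adjusted p = 0.89). Thus 2 of the 7 genes rose, 1 fell and 4 did not pass the test.

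Of 7 bZIP factors that pair with ATF4 or act beside it, 3 rose and 1 fell (57.1% called, against 43.7% of all tested genes). Cebpd, a C/EBP factor of the acute phase response, was at 7.50, 5.56 and 5.56 CPM in WT and 16.3, 11.2 and 15.1 CPM in Pbrm1 cKO (log2 fold change 1.19, SE 0.15, edgeR adjusted p = 3.4e-05). Atf3, a stress-induced factor downstream of ATF4, rose by 0.45 on the log2 scale (edgeR adjusted p = 0.00054), and Nfe2l2, which encodes the oxidative stress factor NRF2, known to act on Slc7a11 as well, by 0.34 (edgeR adjusted p = 0.000123). Atf5, whose translation is controlled like that of Atf4, was at 115, 116 and 105 CPM in WT and 85.1, 81.5 and 75.7 CPM in Pbrm1 cKO. It fell by 0.47 on the log2 scale (SE 0.057, edgeR adjusted p = 1.91e-05). Cebpb and Cebpg, the C/EBP partners of ATF4 most often described, had log2 fold changes of 0.08 and 0.12 and did not pass the test (edgeR adjusted p = 0.641 and 0.104).

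Of 8 further enzymes of serine, glycine and one-carbon metabolism, 2 rose and 2 fell (50% called, against 43.7% of all tested genes). Psph, which completes serine synthesis after PSAT1, rose by 0.27 on the log2 scale (30.3 ± 2.02 to 36.7 ± 2.51 CPM; SD, n = 3; edgeR adjusted p = 0.00742), and the mitochondrial folate enzyme Aldh1l2 by 0.30 (edgeR adjusted p = 0.00112). The cytosolic folate enzymes Mthfd1 (log2 fold change -0.24, edgeR adjusted p = 0.00114) and Shmt1 (-0.17, edgeR adjusted p = 0.0466) fell; Shmt1 lost its call in 9 of 16 alternatives, one of which was DESeq2 (adjusted p = 0.139). Shmt2, the mitochondrial serine hydroxymethyltransferase, was at 202 ± 8.26 and 193 ± 1.59 CPM (SD, n = 3; edgeR adjusted p = 0.255).

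The amino acid transporters went both ways, with 2 of 8 higher and 3 lower (62.5% called, against 43.7% of all tested genes). Slc6a9, a glycine transporter, was at 15, 14.6 and 14.1 CPM in WT and 26.2, 26.8 and 25.4 CPM in Pbrm1 cKO (log2 fold change 0.84, SE 0.073, edgeR adjusted p = 8.9e-07). Slc1a4, a carrier of small neutral amino acids such as serine and alanine, rose by 0.31 on the log2 scale (edgeR adjusted p = 0.000698). Slc7a5, the large neutral amino acid carrier that uses the same heavy chain as xCT, was at 214, 208 and 203 CPM in WT and 165, 179 and 151 CPM in Pbrm1 cKO, and fell by 0.34 on the log2 scale (SE 0.057, edgeR adjusted p = 0.000331). The cationic amino acid carriers Slc7a3 (6.81 ± 1.12 to 2.42 ± 0.656 CPM; SD, n = 3; log2 fold change -1.50, edgeR adjusted p = 3.73e-05) and Slc7a1 (-0.24, edgeR adjusted p = 0.0234) were lower. The groups overlapped for Slc7a1, and its call was lost without WT replicate 2 (edgeR adjusted p = 0.13) and without Pbrm1 cKO replicate 3 (0.0872). Slc38a2, an ATF4-responsive carrier of neutral amino acids, was at 356 ± 6.0 and 381 ± 15 CPM (SD, n = 3; log2 fold change 0.10, edgeR adjusted p = 0.087).

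Aminoacyl-tRNA synthetases, which charge tRNA with amino acids, changed little. Of the 13 that are described as ATF4 targets, 5 rose and 1 fell (46.2% called, against 43.7% of all tested genes). Their log2 fold changes ran from -0.16 (Gars) to 0.25 (Cars), with a median of -0.00161. Cars rose from 123 ± 1.27 to 146 ± 3.95 CPM (SD, n = 3; edgeR adjusted p = 0.000447), and Aars (log2 fold change 0.18), Yars (0.17), Tars (0.14) and Nars (0.13) followed. The calls of Yars, Tars, Nars and Gars were lost in 1, 3, 3 and 1 of the fits that left out a library. Of 7 other cytosolic synthetases, Dars rose (log2 fold change 0.29) and Hars (-0.30) and Farsa (-0.24) fell, for a median of -0.09. In this list 42.9% were called. Whether the 2 lists differ was not tested.

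Among 14 other targets of ATF4, 9 rose and 1 fell, with a median log2 fold change of 0.41. This was 71.4% called, against 43.7% of all tested genes, of which 21.9% were higher. The list was chosen with earlier results of these data known. Proline synthesis from glutamate was represented by both of its listed enzymes. Pycr1, which makes proline in its last step, was at 10.2, 9.78 and 11.1 CPM in WT and 28.4, 24.3 and 24.6 CPM in Pbrm1 cKO. This was a rise of 1.32 on the log2 scale (SE 0.091, edgeR adjusted p = 1.4e-07), and the groups were far apart. Aldh18a1, which starts the same route, rose by 0.35 (edgeR adjusted p = 2.57e-05). Pck2, the mitochondrial phosphoenolpyruvate carboxykinase, was at 56.6, 57.0 and 54.2 CPM in WT and 107, 95.5 and 108 CPM in Pbrm1 cKO (log2 fold change 0.89, SE 0.057, edgeR adjusted p = 6.94e-08). Pck2 lies on chromosome 14 (55540266 to 55551242), as does Pbrm1 (31019138 to 31121592). Whether linkage has a part in its change was not tested. Cbs, which leads homocysteine to cysteine, rose from 2.79 ± 0.491 to 4.43 ± 0.298 CPM (SD, n = 3; log2 fold change 0.66, edgeR adjusted p = 0.00551), while Cth, the next enzyme of that route, was at 11.3 ± 1.15 and 10.4 ± 0.711 CPM (SD, n = 3; edgeR adjusted p = 0.377). The lipoprotein receptor gene Vldlr (0.62), the mTORC1 inhibitor Ddit4 (0.57), the alanine aminotransferase Gpt2 (0.49) and the translation repressor Eif4ebp1 (0.39) also rose on the log2 scale. The 1 gene that fell was Bcat1, named after its value was seen (log2 fold change -0.13, edgeR adjusted p = 0.026). The secreted stress factors Fgf21 and Gdf15 were at 1.30 ± 0.31 and 0.91 ± 0.18 CPM and at 4.43 ± 1.20 and 5.96 ± 0.583 CPM in WT and Pbrm1 cKO (SD, n = 3) and did not pass the test (edgeR adjusted p = 0.187 and 0.0606).

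The XBP1 and ATF6 arms of the unfolded protein response act beside PERK when protein folding in the endoplasmic reticulum fails. They showed 2 calls among 13 genes (15.4%, against 43.7% of all tested genes). Xbp1 was higher (log2 fold change 0.14, edgeR adjusted p = 0.0204) and Edem1 lower (-0.14, edgeR adjusted p = 0.0225), and each call was lost in 4 of the 6 fits that left out a library. The chaperone Hspa5 (BiP), the usual gauge of this response, was at 2300, 2310 and 2337 CPM in WT and 2240, 2250 and 2327 CPM in Pbrm1 cKO (log2 fold change -0.03, 95% interval -0.12 to 0.06, edgeR adjusted p = 0.633). Over the 13 genes the log2 fold changes ran from -0.14 to 0.15, with a median of -0.03.

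**Figure D3:**
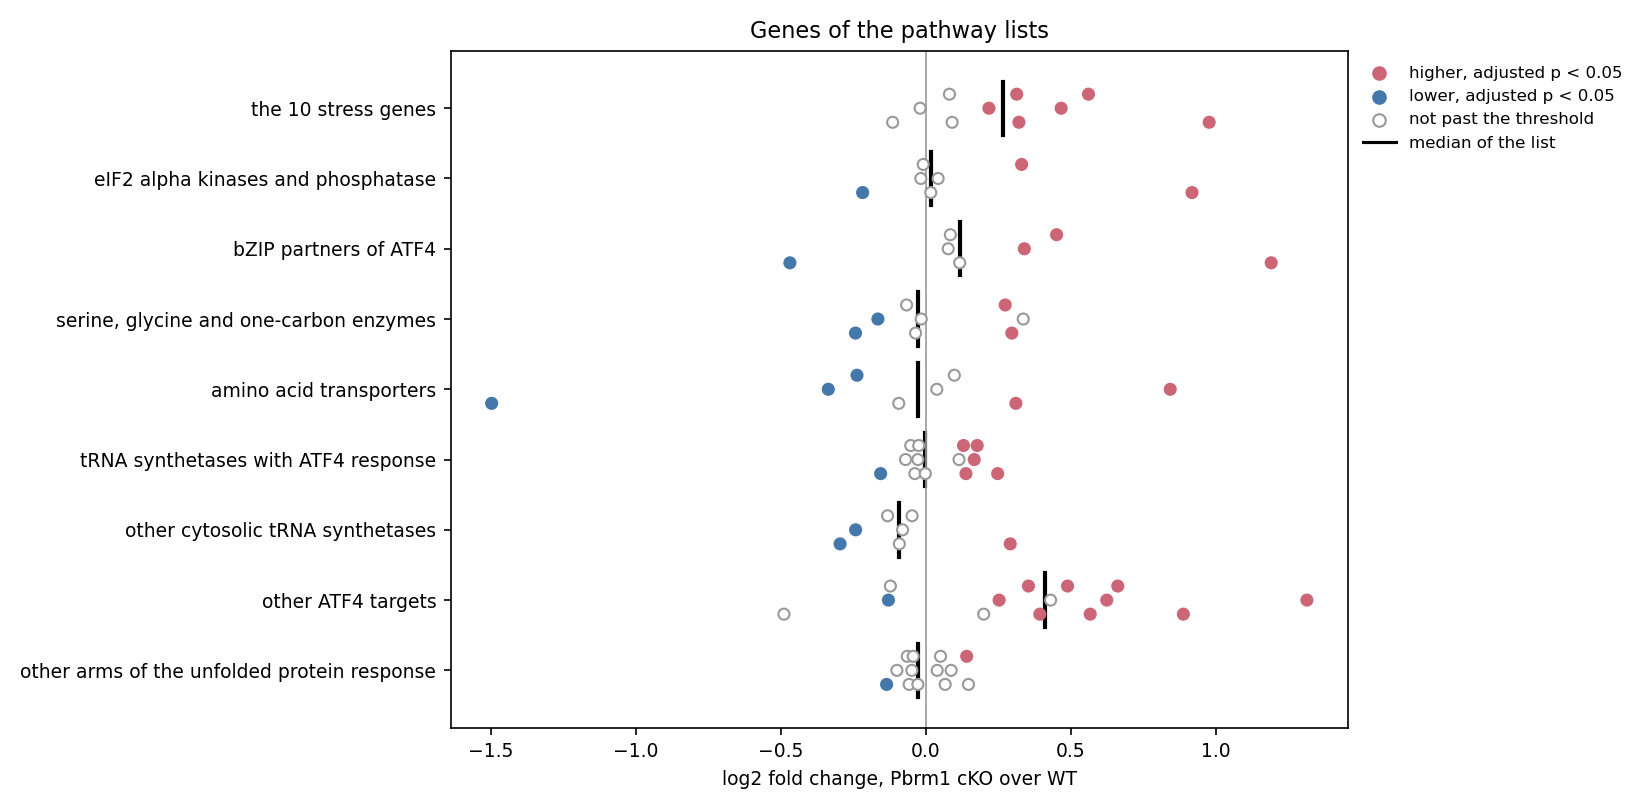
Log2 fold change of Pbrm1 cKO over WT for the 10 genes (top row) and for each gene of the 8 pathway lists, filled red or blue where the edgeR adjusted p-value was under 0.05 and open where it was not; black bars mark the median of each list. The other ATF4 targets have the highest median (0.41), and the 13 genes of the other arms of the unfolded protein response lie within 0.15 of 0.

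Of the 77 pathway genes, 60 matched a RefSeq promoter by symbol and 14 of these held a CARE core. Among 27025 mouse genes, 4.51% held one in at least 1 promoter. The core was in 9 of the 20 pathway genes that were higher and 1 of the 9 that were lower (Gars). It was in 4 of the 31 that did not pass the test (Jdp2, Iars, Fgf21 and Herpud1). The core was not counted among all higher or all lower genes of the count table. Pycr1, Pck2, Vldlr, Atf3 and Nupr1 held it between -200 and -103 from the start. So did Aars (-112), which was higher, and Fgf21 (-139) and Herpud1 (-112), which did not pass the test. Many of the listed genes are known as targets of ATF4, some of them through this element, so the counts are no independent evidence. The cAMP response element was in 1 of the 60, Ppp1r15a, at -12. The genes with no promoter entry were Ppp1r15b, Cebpd, Aldh1l2, Slc7a3, Slc7a5, Slc1a5, Cars, Lars, Nars, Vars, Wars, Hars, Rars, Cth, Eif4ebp1, Atf6 and Manf.

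**Figure D4:**
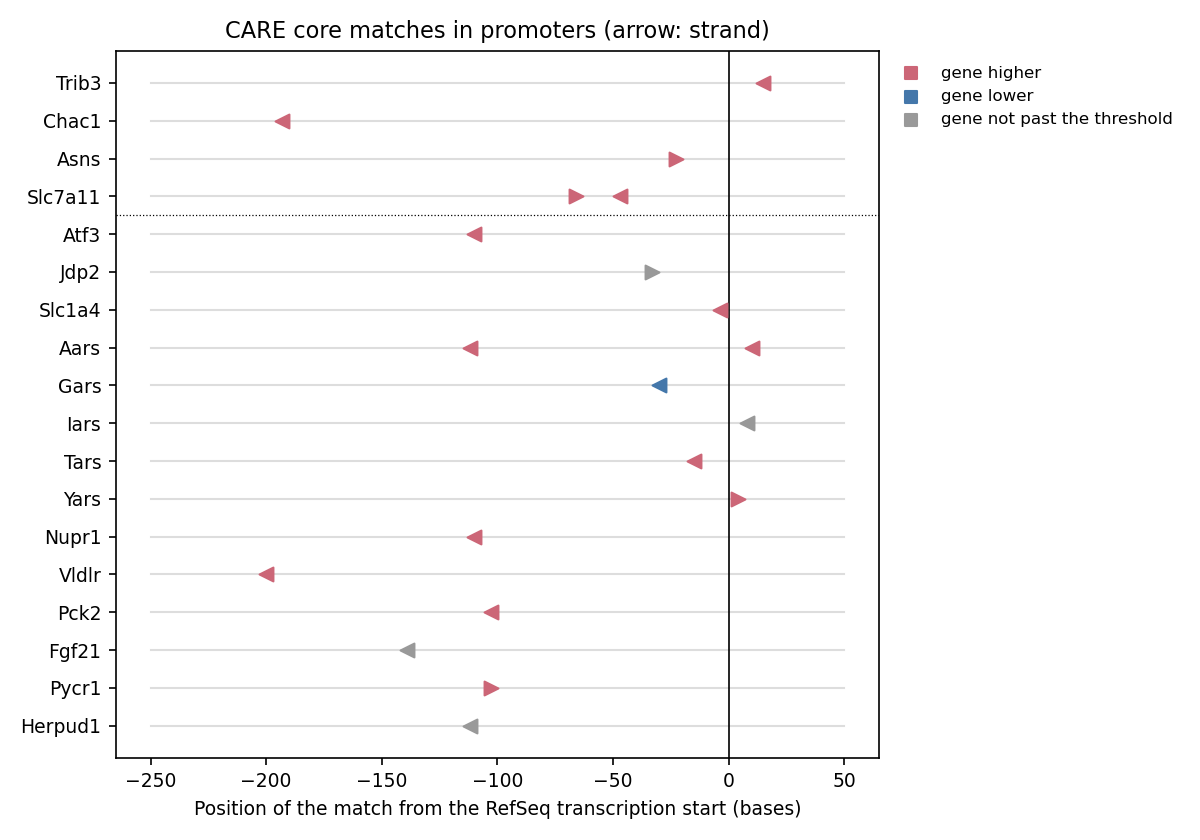
Position of each CARE core match from the RefSeq transcription start, from 250 bases before to 50 bases after it, in the 4 stress genes (above the dotted line) and the 14 pathway genes that hold one; arrows give the strand and colors the call of the gene. Slc7a11 is the gene with 2 matches upstream of the start, at -66 and -47.

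Genes with a pattern most like that of the 3 stress genes with the largest changes were sought among 11013 other genes at 5 CPM or more, by the root mean square difference of centred log2 CPM over the 6 libraries. Nearest to Slc7a11 were Ntn1 (difference 0.0442 on the log2 scale), Ptprn (0.0444) and Emb (0.0448). Ntn1 was at 23.3, 22.3 and 21.4 CPM in WT and 44.9, 46.2 and 46.3 CPM in Pbrm1 cKO. Nearest to Chac1 were Ctbs (0.0613), Kcnk13 (0.0688) and Tmem141 (0.0692), and nearest to Psat1 were Resf1 (0.0143), Cab39l (0.0226) and Rn7s2 (0.0242). None of these 9 genes is on the lists of the pathway, and the points share 6 libraries in 2 groups, so that many genes with a like change lie close. Cab39l lies on chromosome 14 (59440972 to 59585764), as does Pbrm1 (31019138 to 31121592). Whether linkage has a part in the change of Cab39l was not tested.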

How the data were processed

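RNA-Seq libraries of day 2 primary oviductal smooth muscle cells (3 WT, 3 Pbrm1 cKO) were grouped by the genotype in the labels. The authors deposited whole-number read counts per gene; per the file headers, exons of GENCODE M18 were counted with featureCounts 1.6.4 on the reverse strand, with reads mapping to several places or genes left out. The study names cutadapt and HISAT2; coordinates are those of the table (GRCm38). Symbols came from GENCODE M21 (99.7% of genes). Within each group, every pair of libraries differed beyond counting error (chi-square per gene 1.31 to 1.60), so all 6 were used; p-values measure the spread between these libraries.

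The two-sided quasi-likelihood test of edgeR 4.0.16 (R 4.3.3) was applied to the counts after TMM scaling and filterByExpr, and p-values were adjusted over all 15376 tested genes by Benjamini-Hochberg with a threshold of 0.05. CPM used the same library sizes, and RPKM also the exon length of the table. The SE is the size of the log2 fold change over the root of its F statistic. The fit was tested on simulated data. Members and lists were chosen with earlier results of these data known. Named genes were the 10 genes, Pbrm1, up to 8 called genes per pathway list with the largest change, and the 3 nearest genes to each of 3 members; other listed genes were named for their role, after their values were seen. Sequence copies were found with BLAST among GENCODE M21 pseudogenes. Promoters were from RefSeq (GRCm38.p6). Alternatives were DESeq2 1.42.0, limma-voom (limma 3.58.1), 3 scalings, 2 filters, a threshold of 0.01, the replicate number as a block, copies added, mitochondrial genes left out, CPM without length, and each library left out.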

Additional observations from a re-analysis of the deposited data

How the results depend on the processing

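Each of the 10 genes was refitted under 16 alternatives. Slc7a11, Psat1, Chac1, Trib3 and Asns were called higher in all 16 at a threshold of 0.05, and Atf4 and Mthfd2 were called in none (adjusted p = 0.0598 to 0.319 and 0.107 to 0.577). Ddit3 lost its call under DESeq2 (log2 fold change 0.32) and in 1 of the 6 fits that left out a library, whose log2 fold changes ran from 0.27 to 0.36. Phgdh passed the threshold with its copies added (-0.18) and in 1 of the 6 fits without a library (-0.17 to -0.073). Sesn2 changed sign to 0.02 and 0.03 in 2 of those fits (-0.11 to 0.029) and never passed the threshold. The causes were not tested. Of the 10 genes, 5 were called under DESeq2 and at a threshold of 0.01. Between 5 and 7 were called without a library, 7 with copies added, and 6 elsewhere. Where 7 were called, 6 were higher and 1 (Phgdh) was lower. Over all genes, 6723 calls among 15376 tested genes became 5329 among 16841 under DESeq2. Among the same 15376 genes there were 6690 calls under limma-voom and 4665 at a threshold of 0.01. Without a library there were 5532 to 7054 calls, among 15626 to 15718 tested genes. Scaling by library size only gave 3549 higher and 3113 lower calls. The median over all genes stayed within 0.0174 of 0 under every scaling. Of 560 values of 35 named pathway genes, 27 lost their call, 23 of them without a library, and none changed direction.

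Deviations of same-numbered libraries from their group means showed little correlation (-0.0243, 0.0353 and 0.0928). Whether these libraries shared a preparation was not tested. A fit with the replicate block made 6908 calls in 15376 tested genes. Among these calls were 6 of the 10 genes and 38 of the 77 pathway genes. The fewest reads among the 10 genes were those of Ddit3, Trib3 and Chac1, with 169 to 382 per library.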
